A study of Lepidium sativum with 30 samples.

Results

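PER13 (contig TC_24424) and PER45b (contig TC_56525) are a pair of class III peroxidase transcripts of garden cress (Lepidium sativum), and together they make up 2 of the 48306 assembled contigs counted in germinating whole seeds. They were chosen from the count table itself: PER13 for its early difference between seeds imbibed with and without Myrigalone A (MyA) at 6 h, and PER45b for its late rise in MyA seeds at 18 h. The values that led to that choice are therefore given below as descriptions, with no test. The study paired TC_24424 with the Arabidopsis thaliana gene AT1G77100 and TC_56525 with AT4G30170.

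Class III peroxidases are secreted haem enzymes of plants that use hydrogen peroxide to oxidise phenolic and other substrates. In the cell wall they can cross-link extensins and lignin monomers and so stiffen the wall, and in another reaction cycle they can produce reactive oxygen species that loosen it. The family is large in the Brassicaceae, and members are known to be transcribed at different stages of seed germination, around the rupture of the testa and of the endosperm.

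The 30 libraries hold poly(A) RNA of whole cress seeds in 6 groups of 5. They are dry seed, seed imbibed without MyA (control) for 6 h and 12 h, and seed imbibed with MyA for 6 h, 12 h and 18 h. MyA is a dihydrochalcone from Myrica gale, and it was given at 0.5 mM. The study's methods name the solvent DMSO for controls, while its results call the control water. All seeds carry the same genotype label, FR14 (Keimsprossen, Juliwa). No control was sampled at 18 h, so MyA at 18 h was set against control seed at 12 h, where treatment and imbibition time cannot be told apart. Both groups were sampled at the onset of endosperm rupture, which MyA delays.

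Libraries held 20218374 to 33609057 counts. The fifth MyA 18 h library was left out of every fit, following the methods of the original work. That group therefore has 4 libraries, and values of the fifth are named where they are given. A set of 1958 contigs stood at least 4-fold higher in that library than in the other MyA 18 h libraries. These contigs took 1.65% to 7.09% of the counts in the MyA 12 h libraries and 0.976% to 2.23% in control 12 h, and neither PER13 nor PER45b was among them. TIP3;1, a tonoplast aquaporin typical of seeds, stood at 51.4 ± 17.3 CPM (counts scaled to library size with TMM factors; SD, n = 5) in dry seed and at 1.49 ± 0.669 (SD, n = 5) in control seed at 12 h. Whole seeds mix endosperm, testa and embryo, so a lower level from fewer cells of a type and one from less RNA per cell cannot be told apart.

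PER13 was almost absent from dry seed, rose with imbibition in control seed, and stood higher in MyA seed at 6 h, 12 h and 18 h than in the control set against it. Its levels are given in the same unit, with libraries in the order of their replicate numbers. In dry seed PER13 had 2, 2, 2, 1 and 2 counts, or 0.0840, 0.104, 0.131, 0.0615 and 0.0828 CPM. In control seed at 6 h it stood at 1.60, 2.18, 1.66, 1.78 and 1.61 CPM, from 51 to 58 counts. Each imbibed library was above each dry seed library. The ratio of the summed counts per depth was 19.2, with a 95% counting interval of 9.96 to 42.4, since dry seed held only 9 counts in all. In control seed at 12 h the values were 5.52, 5.34, 7.05, 8.66 and 6.98 CPM.

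PER13 therefore rose in control seed over both intervals, with no overlap between successive groups. The log2 fold change was 4.10 (SE 0.25, edgeR adjusted p = 7.64e-08) from dry seed to control 6 h and 2.02 (SE 0.18, edgeR adjusted p = 1.86e-06) from control 6 h to control 12 h. Over all contigs tested, 26.5% were called higher in the first interval and 12.8% in the second, where a call needs an adjusted p under 0.05 and a change of more than 2-fold. The 6 h control libraries of both intervals also belong to the contrast by which PER13 was chosen.

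**Figure D1:**
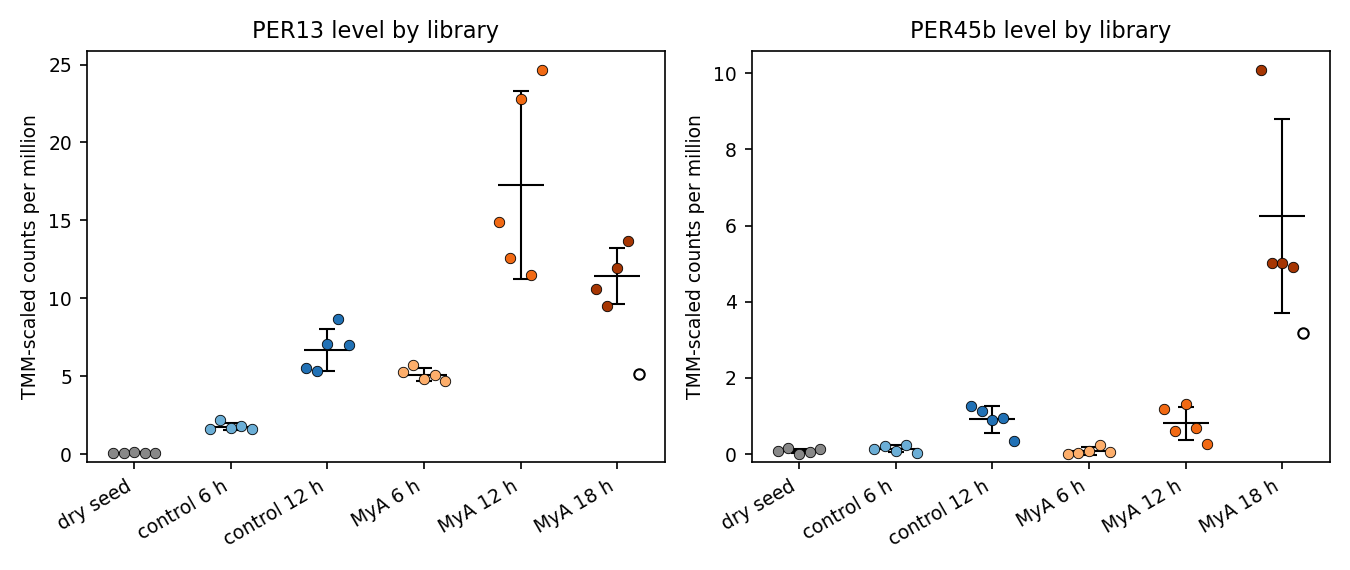
Level of PER13 (left) and PER45b (right) in each library, in TMM-scaled CPM, by group. Filled points are libraries, the open point is the MyA 18 h library that was left out, and lines with bars are the mean and SD of the filled points. PER13 reached its highest values in MyA seed at 12 h (11.5 to 24.7), whereas PER45b stayed under 1.31 in all groups but MyA at 18 h (4.91 to 10.1).

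With MyA, PER13 stood at 5.30, 5.70, 4.81, 5.06 and 4.67 CPM at 6 h, from 152 to 181 counts. All 5 values lay above the 5 control values of that time, which reached 2.18 CPM at most. The difference was 2.93-fold, or 1.55 on the log2 scale. This is the contrast that selected PER13, so the difference is given without a test. Over all 22155 contigs, 3 were called higher in this comparison (0.0135%). At 6 h the MyA libraries (5.11 ± 0.408 CPM, SD, n = 5) overlapped those of control seed sampled at 12 h (6.71 ± 1.35 CPM, SD, n = 5) only through replicate 2. The other MyA 6 h libraries lay below every control 12 h library. Both groups were above control seed at 6 h (1.77 ± 0.240 CPM, SD, n = 5).

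The libraries at 12 h are other samples than those of the 6 h contrast, but earlier 12 h results of these data were known when PER13 was chosen. Here MyA seed stood at 14.9, 12.6, 22.8, 11.5 and 24.7 CPM against the 5.34 to 8.66 CPM of control seed. The groups did not overlap, and PER13 was higher in MyA by 1.37 on the log2 scale (SE 0.23, edgeR adjusted p = 0.0147), a 2.59-fold difference. An exact two-sided permutation test of log2 CPM over the 5 and 5 libraries gave p = 0.00794, the smallest it can give. In this comparison 8.58% of the contigs were called higher, and 1847 of those 1902 belonged to the set enriched in the left-out library. Without that set PER13 differed by 1.41 on the log2 scale (edgeR adjusted p = 0.0320). The call was lost when control 12 h replicate 2 (edgeR adjusted p = 0.0509) or control 12 h replicate 5 (edgeR adjusted p = 0.0510) was left out, at changes of 1.31 and 1.39.

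PER13 varied more between the MyA 12 h libraries than in any other imbibed group. Its coefficient of variation was 34.9% there, where counting error alone gives 4.26%, against 7.98% in MyA seed at 6 h, where counting error gives 7.79%. The SD of log2 CPM was 0.50 in MyA 12 h against a median of 0.26 over all contigs tested, and 0.11 against 0.22 in MyA 6 h. The libraries with most PER13 at 12 h were replicates 5 and 3, in which the contigs enriched in the left-out library took 1.65% and 7.09% of the counts, the lowest and the highest share of the group.

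In MyA seed PER13 rose from 6 h to 12 h by 1.81 on the log2 scale (SE 0.21, edgeR adjusted p = 2.53e-05), in a comparison that called 19.1% of contigs higher and that again used the MyA 6 h libraries. By 18 h it stood at 10.6, 9.51, 12.0 and 13.7 CPM, and at 5.16 CPM in the left-out library. These 4 values overlapped those of MyA at 12 h, and the difference of -0.59 on the log2 scale (SE 0.23) did not pass the test (edgeR adjusted p = 0.130). In one fit over all 6 groups the adjusted p was 0.0276 at -0.58, still under a 2-fold change. Against control seed at 12 h they did not overlap. PER13 was 1.68-fold higher at 18 h, or 0.75 on the log2 scale (SE 0.16, edgeR adjusted p = 0.00786), which is under the 2-fold limit of a call. With the left-out library included the edgeR adjusted p was 0.0893 at a change of 0.62. In the paper's RT-qPCR of PER13, MyA 18 h and control 12 h overlapped within their standard errors, at a smaller ratio than that of the counts. For MyA against control at 12 h the assay gave a larger ratio than the counts.

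The MyA differences of PER13 were thus 2.93-fold at 6 h, 2.59-fold at 12 h and 1.68-fold at 18 h against control 12 h, and those at 12 h and 18 h share their controls. The difference between the 12 h and the 6 h log2 changes was -0.15 (SE 0.27), given without a test because it contains the 6 h contrast. Ordered by mean level, dry seed was lowest, followed by control 6 h, MyA 6 h, control 12 h, MyA 18 h (11.4 ± 1.80 CPM, SD, n = 4) and MyA 12 h (17.3 ± 6.04 CPM, SD, n = 5). Only MyA 6 h with control 12 h and MyA 18 h with MyA 12 h overlapped among neighbours in that order.

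**Figure D2:**
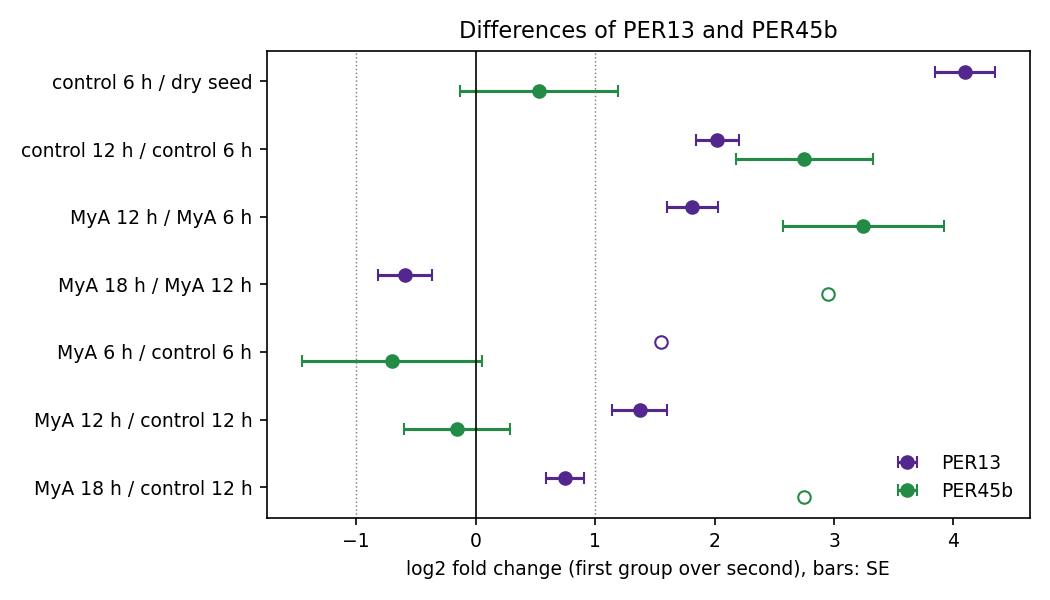
Log2 fold change of PER13 (purple) and PER45b (green) in 7 comparisons, each the first group over the second. Filled points carry their standard error, open points without bars are the contrasts by which the contigs were chosen, and dotted lines mark a 2-fold change. Both contigs rose from 6 h to 12 h with and without MyA, and only PER13 passed the test for MyA against control at 12 h (1.37 for PER13 and -0.16 for PER45b).

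PER45b stayed at the limit of detection through 6 h, rose between 6 h and 12 h in control and in MyA seed, and reached its highest level in MyA seed at 18 h. Dry seed held 2, 3, 0, 1 and 3 counts of PER45b, control seed at 6 h 4, 6, 3, 8 and 1, and MyA seed at 6 h 0, 1, 3, 8 and 2. These 3 groups overlapped one another throughout, at 0 to 0.249 CPM. From dry seed to control 6 h the change was 0.53 on the log2 scale (SE 0.67, edgeR adjusted p = 0.472), and the ratio of summed counts per depth, 1.55, had a 95% counting interval of 0.687 to 3.83.

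At 6 h the MyA libraries summed to 14 counts and the controls to 22. The ratio per depth was 0.612 (95% counting interval 0.289 to 1.25), and the fitted log2 change of -0.70 (SE 0.76) did not pass the test (edgeR adjusted p = 0.854). MyA 6 h replicate 4 held 8 of the 14 counts, and without it the change was -1.53 (edgeR adjusted p = 0.907). A difference in PER45b at 6 h was thus not detectable at this depth. These intervals cover counting error only.

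By 12 h control seed had 1.25, 1.13, 0.888, 0.962 and 0.334 CPM of PER45b, from 11 to 42 counts. All 5 lay above the 5 control libraries at 6 h. The rise was 2.75 on the log2 scale (SE 0.57, edgeR adjusted p = 0.00115). MyA seed at 12 h had 1.19, 0.597, 1.31, 0.692 and 0.278 CPM, all above MyA seed at 6 h, with a rise of 3.25 (SE 0.67, edgeR adjusted p = 0.00122) that became 4.08 without MyA 6 h replicate 4. Both 12 h groups also belong to the contrasts by which PER45b was chosen.

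The MyA and control ranges at 12 h lay almost on each other, 0.278 to 1.31 CPM and 0.334 to 1.25 CPM. The difference was -0.16 on the log2 scale (SE 0.45, edgeR adjusted p = 0.920, exact two-sided permutation p = 0.643). The 95% counting interval of the ratio of summed counts per depth was 0.696 to 1.14. Its sign turned to 0.09 without MyA 12 h replicate 5, the library with the least PER45b. The MyA effect at 12 h less that at 6 h was 0.58 (SE 0.88, edgeR adjusted p = 0.934), and 1.41 without MyA 6 h replicate 4 (edgeR adjusted p = 0.752), in a test that called 0.0542% of contigs higher.

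At 18 h PER45b stood at 10.1, 5.02, 5.02 and 4.91 CPM, from 295, 151, 164 and 162 counts. The lowest of these lay above the highest value of any other group (1.31 CPM), and replicate 1 stood apart from the other 3. The rise was 6.73-fold (2.75 on the log2 scale) over control 12 h and 7.72-fold (2.95) over MyA 12 h, and both selected the contig. Without replicate 1 these log2 changes were 2.42 and 2.59. The paper's RT-qPCR of this contig gave a smaller ratio of MyA 18 h to control 12 h than the counts. In that assay these groups overlapped within their standard errors. Seed given angelicin, another germination inhibitor, had a larger mean ratio to control 12 h at 18 h there than MyA seed. The library left out of the fits held 42 counts of PER45b, or 3.19 CPM, below the other MyA 18 h libraries and above all control libraries. Among all contigs 2.43% were called higher at 18 h than in control 12 h, and 1.97% than in MyA 12 h.

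PER45b passed the filter on low values, at least 5 CPM in at least 4 libraries, only through the 4 MyA 18 h libraries, the fourth highest of its values being 5.26 CPM before TMM scaling. PER13 reached 5 CPM in 18 libraries. Ordered by mean level, PER45b was lowest in MyA 6 h (0.0845 ± 0.0950 CPM, SD, n = 5), dry seed (0.0852 ± 0.0600) and control 6 h (0.145 ± 0.0914), which did not differ beyond their spread, followed by MyA 12 h (0.814 ± 0.429) and control 12 h (0.913 ± 0.354), which overlapped, and by MyA 18 h (6.26 ± 2.55 CPM, SD, n = 4).

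Set against each other within a library, the contigs need no scaling. PER13 was chosen for its level in MyA 6 h and PER45b for its level in MyA 18 h. A high ratio in the first group and a low ratio in the second thus follow in part from that choice, and are given as descriptions. The log2 ratio of PER13 to PER45b counts (0.5 added to each) had a median of 3.52 in control 6 h (2.76 to 5.16, n = 5) and of 6.03 in MyA 6 h (4.29 to 8.25, n = 5). It was 2.97 in control 12 h (2.13 to 4.33) and 4.10 in MyA 12 h (lowest 3.63), and 1.09 in MyA 18 h (n = 4). The 4 ratios at 18 h, from 0.07 to 1.47, lay below every ratio of the other imbibed groups, of which the lowest was 2.13 in control 12 h. In MyA 18 h replicate 1, the library with most PER45b, the counts were nearly even at 309 for PER13 and 295 for PER45b. Since contig lengths were not used here, the ratio shows how the balance moved between groups and not which transcript was more abundant.

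**Figure D3:**
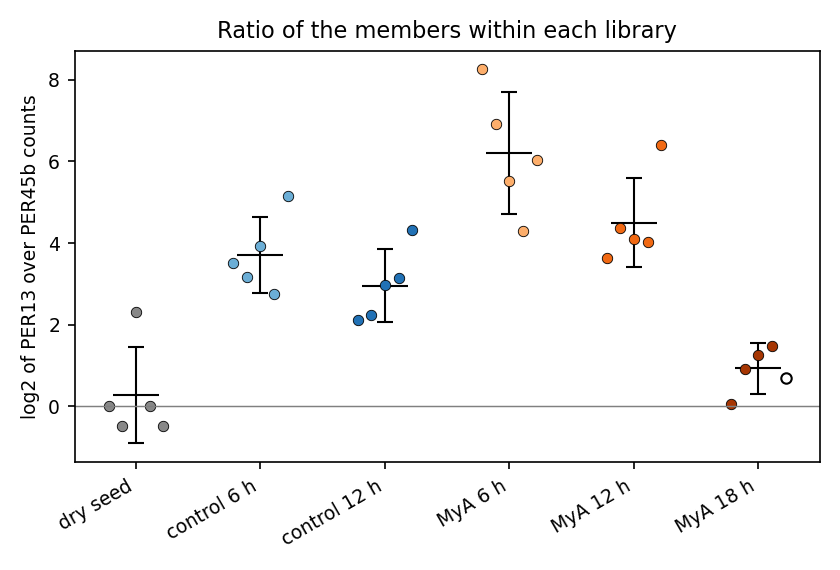
Log2 ratio of PER13 to PER45b counts in each library (0.5 added to each count), by group. Points, lines and the open point are as in the plot of levels. The ratio was highest in MyA seed at 6 h (4.29 to 8.25) and lowest among imbibed seed in MyA at 18 h (0.07 to 1.47). These are the groups for which PER13 and PER45b were chosen, so both extremes follow in part from that choice.

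Over the 6 group means of log2 CPM, PER13 and PER45b had a Pearson correlation of 0.64, a description over groups that share their time course. The same measure was taken for the 224 tested contigs that the study paired with an Arabidopsis gene. Those most like PER13 were BHLH62 (0.95), a basic helix-loop-helix protein, AT3G56360 (0.94), UGT73B2 (0.94), a glucosyltransferase of flavonoids, GSTU1 (0.93), a tau class glutathione S-transferase, and GA20OX2 (0.93), a gibberellin biosynthesis oxidase. None of these 5 had its highest mean in MyA 12 h as PER13 did, and all 5 were highest in MyA 18 h. GSTU1 had a mean of 0.359 CPM in control 6 h, 1.90 in MyA 6 h and 5.67 in MyA 12 h.

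Those most like PER45b were one of the FSD1 contigs (TC_57989, 0.995), an iron superoxide dismutase, which makes hydrogen peroxide from superoxide, ABCG14 (0.994), a cytokinin transporter, WAT1 (0.991), a tonoplast auxin transporter, AT2G27140 (0.991) and EXT3 (0.990), an extensin of the cell wall. EXT3 stood at 1.22 CPM in control 12 h, 1.13 in MyA 12 h and 8.62 in MyA 18 h. The FSD1 contig stood at 1.30, 1.03 and 8.77 CPM in these groups. Like PER45b, EXT3 and the FSD1 contig reached 5 CPM in only 4 libraries, those of MyA 18 h. They entered the search through the group where they are high, so their likeness to PER45b follows in part from the filter. Correlations above 0.9 are common over 6 points, being reached with PER13 by 10.4% and with PER45b by 6.71% of all contigs tested.

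Beside PER13 and PER45b, 4 class III peroxidases could be matched to a contig: PER45a (TC_25571, from a graph label), PER70 (TC_1841), PER3 (TC_24776) and PER12 (TC_27602). The study picked them on these libraries, so their directions are not independent evidence. None reached the 5 CPM filter, and all 6 were tested in a fit over 42831 contigs that reach 5 counts in 4 or more libraries. PER45a and PER45b go back to the same Arabidopsis gene, and how the counting split reads between similar copies is not known.

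From control 6 h to control 12 h, 12% of all contigs were called higher. PER45a and PER70 were among them, as were the chosen PER13 and PER45b. PER12 was not called, and PER3 is described below without a test. PER70 went from 2 counts summed over the 5 control libraries at 6 h to 251 at 12 h (ratio 121, 95% counting interval 33.0 to 1000.5), and PER45a from 5 to 100 (ratio 19.2, 7.96 to 60.4). PER3 had no count in dry seed or in control seed at 6 h and 19 at 12 h, at least 6.08-fold higher against a floor of 3 counts over the group. The median log2 change of the 6 was 3.52, or 2.7 with PER3 at that bound, beside 0.10 over all contigs. All 6 were picked on these libraries, so the median describes them and not the peroxidase family.

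At 6 h PER12, PER45a and PER70 did not pass the test for MyA (edgeR adjusted p from 0.829 to 0.962). Summed over the MyA libraries, PER45a, PER70 and PER3 held 7, 3 and 3 counts, and over the controls 5, 2 and 0. These counts are too few to show whether those contigs differed at 6 h. At 12 h PER13 alone of the 6 was called, where 10% of contigs were called higher. PER70 stood at 0.980, 0.697, 0.827, 0.649 and 0.445 CPM in MyA 12 h and at 1.67, 0.751, 0.797, 3.35 and 1.49 CPM in control 12 h, overlapping in part. Its log2 difference of -1.16 (SE 0.41) and that of PER45a, -1.21 (SE 0.50), missed the threshold (edgeR adjusted p = 0.107 and 0.191), though DESeq2 called PER70 lower.

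At 18 h against control 12 h, PER12 rose, and it passed the filter without the MyA 18 h libraries. It stood at 3.15, 2.23, 3.18 and 2.88 CPM in MyA 18 h and at 1.19, 0.664, 0.521, 0.463 and 0.546 CPM in control 12 h, with no overlap (2.05 on the log2 scale, SE 0.30, edgeR adjusted p = 0.00157). It was also found in dry seed, at 3.11 ± 0.922 CPM (SD, n = 5), and fell to 0.964 ± 0.357 CPM (SD, n = 5) in control 6 h (-1.61 on the log2 scale, SE 0.30, edgeR adjusted p = 0.000389), as did 26.5% of all contigs tested.

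PER3 stood at 0.0607 to 0.153 CPM in control 12 h and at 0.532 to 0.650 CPM in MyA 18 h, with no overlap. It reached 5 counts only in the 4 MyA 18 h libraries and 2 of control 12 h, so it passed the filter through the group where it is high and is given without a test. PER45a ranged from 0.547 to 2.60 CPM in MyA 18 h and overlapped control 12 h (1.48 on the log2 scale, SE 0.52, edgeR adjusted p = 0.0790), and it was called without control 12 h replicate 1 (2.06, edgeR adjusted p = 0.0193) or MyA 18 h replicate 1 (1.72, edgeR adjusted p = 0.0473). PER45a had its lowest MyA 18 h value in replicate 1, the library with the most PER45b. PER70 differed by -1.64 on the log2 scale (SE 0.49, edgeR adjusted p = 0.0452). The call was lost in 6 of 9 fits with a library left out (control 12 h replicate 1, 4 or 5, or MyA 18 h replicate 1, 3 or 4), with adjusted p up to 0.101, and when the left-out library was included or when 3 RT-qPCR reference contigs set the scale.

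**Figure D4:**
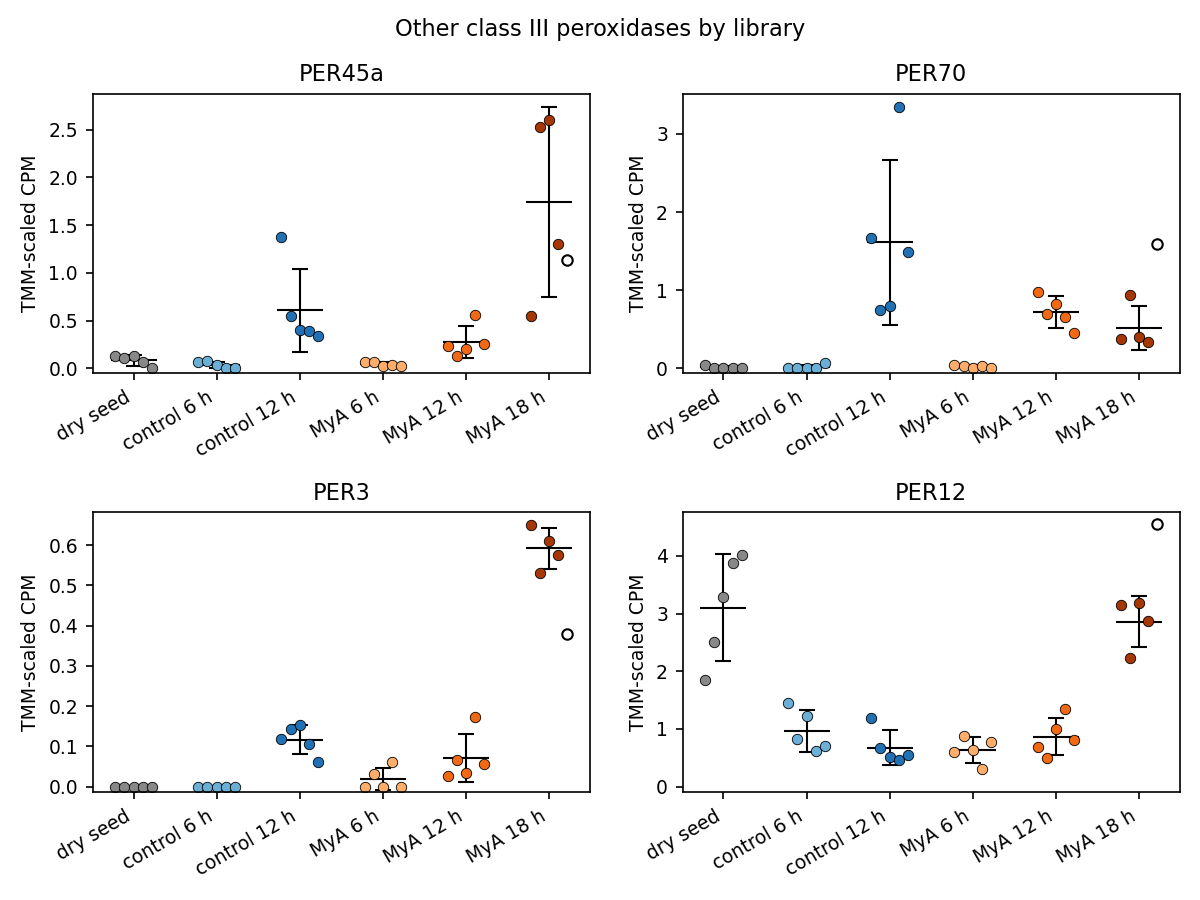
Level of PER45a, PER70, PER3 and PER12 in each library, in TMM-scaled CPM, by group. Points, lines and the open point are as in the plot of PER13 and PER45b. PER3 (0.532 to 0.650) and PER12 (2.23 to 3.18) stood above control 12 h in all 4 MyA 18 h libraries, and PER70 was highest in control 12 h.

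Contigs listed as hydrogen peroxide and redox enzymes, or by name as extensins, came from the same study lists and carry the same limit. The first list also holds redox enzymes, such as DHAR2 and a glutaredoxin, that need not act on hydrogen peroxide itself. Whether the products of the second are substrates of these peroxidases was not tested. Of 11 contigs for hydrogen peroxide and redox enzymes, 5 of them FSD1, 9 rose at 18 h against control 12 h, where 2.86% of all contigs did. At 12 h 2 of the 11 rose, where 10% of all contigs did, so that count is not far from the share of all contigs. The median log2 changes were 2.44 at 18 h and 0.51 at 12 h, beside 0.06 and -0.01 over all contigs. APX5, an ascorbate peroxidase, changed by 2.29 (SE 0.23, edgeR adjusted p = 0.000227) at 18 h and by 0.11 (edgeR adjusted p = 0.860) at 12 h. DHAR2, a dehydroascorbate reductase, was called at both times, with 2.24 at 12 h and 3.00 at 18 h (edgeR adjusted p = 0.0125 and 0.0135). Its MyA 18 h values were 2.12, 2.13, 4.92 and 21.2 CPM, and without replicate 4 the change was 1.62 (edgeR adjusted p = 0.0173). The other contig called at 12 h, the glutaredoxin AT5G58530 (1.37, edgeR adjusted p = 0.0159), lost its call without control 12 h replicate 1 or 2 (edgeR adjusted p = 0.0536 and 0.0522). Of the 4 contigs listed as extensins, EXT3, ELP and AT5G22430 rose by 2.80, 2.91 and 2.74 at 18 h (edgeR adjusted p = 0.00261, 0.00130 and 0.000751). EPR1 fell by 1.45 (edgeR adjusted p = 0.00348), where 0.873% of all contigs fell. At 12 h the 4 log2 differences between MyA and control ran from -0.81 to -0.11, and the smallest edgeR adjusted p was 0.0908, that of EPR1, which was called lower without MyA 12 h replicate 2 (-1.07, edgeR adjusted p = 0.0337).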

How the data were processed

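The deposited values are raw read counts per contig. The authors mapped paired-end reads of poly(A) libraries with BWA to an assembly of their own and counted them with HTSeq (versions not stated), with no normalization. Contig sequences and lengths were not used here. PER13, PER45b and all lists were chosen with earlier results of these data known. Named genes are the 2 members, every listed contig, and per member the 5 contigs paired with a gene that were most alike over the 6 group means.

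Contigs with at least 5 CPM in at least 4 of 29 libraries (22155 contigs) were fitted per comparison with edgeR 4.0.16 in R 4.3.3 (TMM factors, glmQLFit, glmQLFTest, Benjamini-Hochberg adjustment). Levels used TMM factors over all 30 libraries, and log2 CPM a prior count of 2. Listed contigs were read from a fit over 42831 contigs with at least 5 counts in 4 libraries. Fits were tested on simulated data. Alternatives were RLE factors, library size alone, 3 RT-qPCR reference contigs as scale, DESeq2 1.42.0, other filters, one fit over all groups, a replicate block, removal of the 1958 contigs, exact permutation, inclusion of the fifth MyA 18 h library and each library left out. Those for the listed contigs were chosen after seeing the data. The study's captions call the replicates biological, but separate seed batches are not named in the labels, so p-values cover variation among these samples.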

Additional observations from a re-analysis of the deposited data

Results flagged for a closer look

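In the 6 class III peroxidases, 34 groups of 4 or 5 libraries were searched for a library far from the others by Dixon's test, which flags about 1 group in 20 by chance, and 8 were found. PER45b stood at 10.1 CPM in MyA 18 h replicate 1 and between 4.91 and 5.02 CPM in the other 3. PER45a stood at 1.37 CPM in control 12 h replicate 1 (others 0.334 to 0.549) and at 0.563 CPM in MyA 12 h replicate 4 (others 0.133 to 0.250). PER3 was highest in that same MyA 12 h library, at 0.173 CPM (others 0.0265 to 0.0664), and PER12 in that same control 12 h library, at 1.19 CPM (others 0.463 to 0.664). PER70 stood at 0.931 CPM in MyA 18 h replicate 2 (others 0.333 to 0.398). The other 2 flags of PER70 rest on 1 and 2 counts, in dry seed replicate 1 (0.0420 CPM) and control 6 h replicate 5 (0.0606 CPM), beside libraries with none.

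The MyA 18 h library kept out of the fits carried 3.19 CPM of PER45b, above the 0.334 to 1.25 CPM of control 12 h.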

How the results depend on the processing

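The 15 comparisons of PER13 and PER45b kept their direction and, where tested, their call under all 150 alternatives other than leaving out a library. Leaving out 1 library at a time moved PER13 in MyA 12 h against control 12 h between 1.23 and 1.50 on the log2 scale, with edgeR adjusted p from 0.00228 to 0.0510, and 2 of 10 fits lost the call (without control 12 h replicate 2 or 5). No other call changed in these fits, but PER45b in MyA 12 h against control 12 h, which was not called, ran from -0.38 to 0.09 and changed sign. Without MyA 6 h replicate 4, PER45b moved to -1.53 in MyA against control at 6 h, to 4.08 from MyA 6 h to MyA 12 h and to 1.41 in the interaction.

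Same-numbered libraries were not shown to be pairs: their correlations ran from 0.02 to 0.79 between MyA and control at 6 h, where 4 of 5 were over 0.1, from -0.03 to 0.51 between MyA and control at 12 h and from -0.47 to -0.19 between MyA 18 h and control 12 h. With the replicate block PER13 differed by 1.33 at 12 h (edgeR adjusted p = 0.0101) and by 0.78 at 18 h against control 12 h (edgeR adjusted p = 0.0334). PER45b differed by -0.20 at 12 h (edgeR adjusted p = 0.791), with an SE of 0.29 against 0.45 without the block. The block changed no call.

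From dry seed to control 6 h, library size alone and the reference contigs moved the median of all contigs to 0.56 and 0.69, and PER13 to 4.59 and 4.72. From 6 h to 12 h the reference contigs moved that median to -0.14 in control and -0.16 in MyA seed. DESeq2 also called PER45a higher at 18 h against control 12 h. Depth limits PER45b before 12 h, at 0 to 8 counts a library, and PER3, PER45a and PER70 before 12 h.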
